A study of Homo sapiens with 2 samples.

Results

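The genes described here are 50 mitotic kinases, cyclins, kinesins, spindle checkpoint and kinetochore genes and their partners, chosen by name from a list of gene symbols. They were chosen with earlier results of these data known, which limits every comparison of their shares with those of all genes. Probes that the platform annotation gives to exactly 1 of these genes measured 49 of the 50, out of 18377 genes on the array in all. The gene without such a probe was CENPA, the histone H3 variant of the centromere. The samples are cultures of the established human line K562, which comes from a chronic myeloid leukaemia, depends on the BCR-ABL1 fusion kinase and has erythroid features. The first was grown with erythropoietin (EPO), the cytokine of red cell formation. The second carries no mention of EPO in its labels and is taken as grown without it. Both were exposed to imatinib, an inhibitor of the BCR-ABL1 kinase, at 2 µM for 6 h, so the pair compares EPO with no EPO in inhibited cells. Untreated cells were not analysed here. RNA of each culture was put on 1 Affymetrix Gene 1.0 ST array, which leaves 1 array in each group. Differences therefore have no error estimate and were not tested.

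Entry into mitosis is driven by CDK1 bound to A- and B-type cyclins. CDC25 phosphatases switch this kinase on, and Aurora and Polo-like kinases act beside it on centrosomes, spindle and chromosomes. Kinesins are motor proteins that move along or take apart spindle microtubules. Kinetochores tie chromosomes to these microtubules, and the spindle checkpoint holds back the anaphase-promoting complex until every chromosome is attached. Transcripts of most of these genes peak in G2 and mitosis, so in a bulk culture they report on the share of cells in those phases as well as on RNA per cell. Those 2 cannot be told apart here.

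Most of the 49 genes read higher on the array with EPO. The median log2 value was 0.17 with EPO, against -0.59 without EPO, on a scale centred by the authors on an unknown baseline, so that a value shows a deviation and no abundance. The difference, taken as EPO minus no EPO on the log2 scale, had a median of 0.77 (1.70-fold) over the 49 genes, against -0.047 over all genes. It lay above 0 for 45 of the 49 genes (91.8%), against 45.4% of all genes. A gene was called higher or lower at a difference of at least 2-fold, which is 1 on the log2 scale. By this rule 11 of the 49 (22.4%) were higher with EPO, where the share of all genes called higher was 6.19%. None (0 of 49) was lower, where the share of all genes called lower was 0.898%. At 1.5-fold, 30 of the 49 were higher and 0 lower, where the shares of all genes were 18.1% and 4.65%. The 2-fold call turned at a narrow gap: KIF4A stood at 1.02, and CENPF and BUB1 stood just short of the threshold at 0.99 and 0.97.

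**Figure D1:**
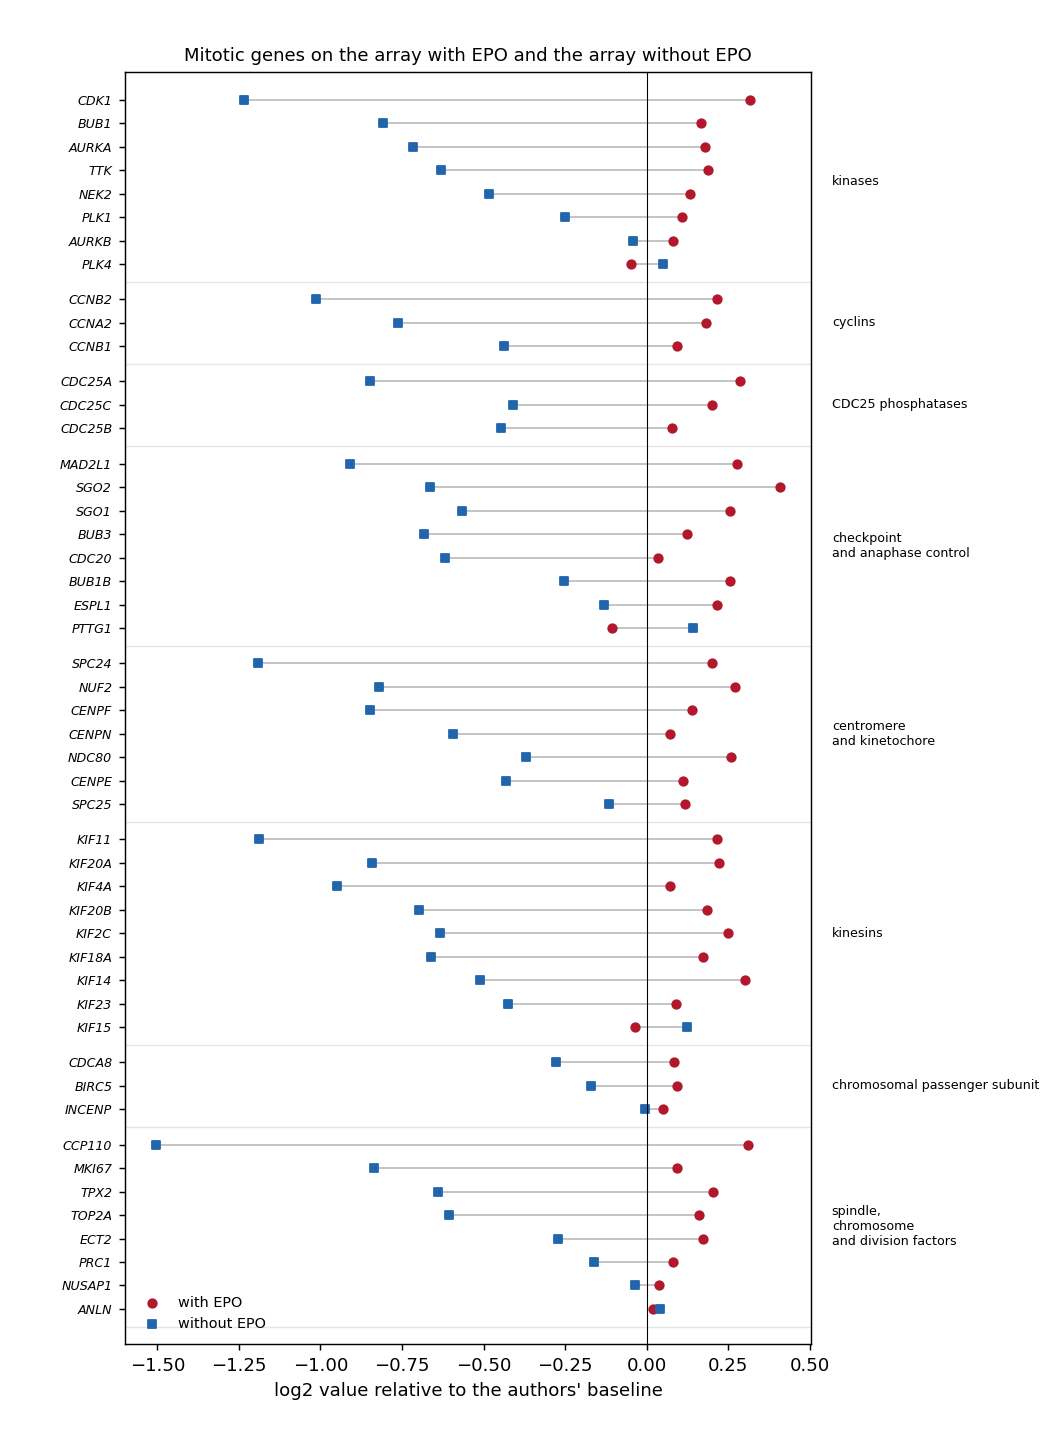
Log2 value relative to the authors' baseline for each of the 49 measured mitotic genes, with EPO (red circles) and without EPO (blue squares), 1 array each, grouped by role and ordered by difference. With EPO the values span -0.11 to 0.41, and without EPO they span -1.50 to 0.14.

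The 2 arrays did not lie equally far from the baseline. Across all 28869 probes the standard deviation was 0.134 with EPO and 0.431 without EPO. Among the 49 genes, 46 lay above the baseline with EPO and 45 lay below it without EPO. The array without EPO was the farther from the baseline for 42 of the 49 (85.7%), against 82.6% of all genes. For the 11 genes called higher it held between 61.9% and 93.1% of the difference.

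Other gene classes moved on these arrays too, and their values belong beside every count above. Genes of general cellular machinery (437 genes such as proteasome, respiratory chain and spliceosome subunits, none of them among the 49) had a median difference of 0.47, and 13.7% were called higher. A set called silent families was taken from gene symbols, with no check of expression in these cells. These 481 genes, mostly olfactory receptors with other sensory receptors, hair keratin partners and defensins, had a median of -0.33, with 0.208% called higher. Of the 49 mitotic genes, 35 lay above the machinery median. With that median subtracted from every gene, CCP110 and CDK1 were the 2 of the 49 still called higher, where the share of all genes called higher was 0.691%, and 0 of the 49 were lower, where the share of all genes called lower was 6.38%. The median of the 49 then became 0.30. With the median of the silent families subtracted, 25 of the 49 were called higher, where the share of all genes was 15.3%, and 0 were lower, where it was 0.55%. The median of the 49 then became 1.10. With the median of all genes subtracted, 13 of the 49 were higher (7.17% of all genes) and 0 lower (0.849% of all genes). The part of these class differences in the mitotic values was not tested.

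**Figure D2:**
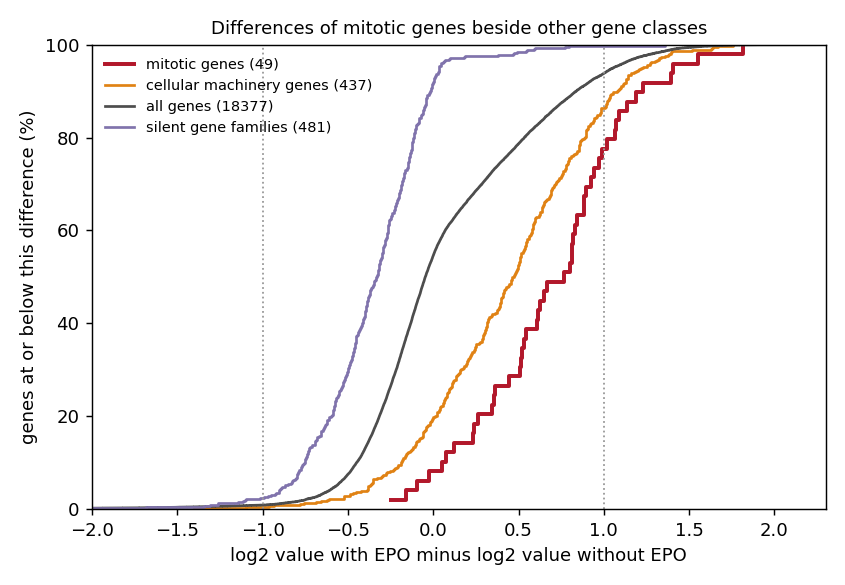
Cumulative share of genes (y axis, percent) at or below a given difference, log2 with EPO minus log2 without EPO (x axis, drawn from -2 to 2.3), for the 49 mitotic genes, 437 cellular machinery genes, all 18377 genes and 481 genes of silent families. The dotted lines mark 2-fold. The mitotic curve lies to the right, with a median of 0.77 against 0.47 for machinery, -0.047 for all genes and -0.33 for silent families.

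The promoters of these genes were read from RefSeq (GRCh38.p14), as the 250 bases before and 50 bases after the first listed start of each gene. Of the 50 genes, 45 had an entry. The following 6 are shown because they belong to the 4 genes with the largest differences, CCP110, CDK1, KIF11 and SPC24, and to the 2 genes with the smallest, PTTG1 and KIF15. Capitals mark matches, on either strand, to any of 4 motifs: the cell cycle genes homology region (CHR, TTTGAA), the CCAAT box (CCAAT), an E2F-like motif (TTCCCGC or TTCGCGC or TTGCCGC or TTGGCGC) and a STAT5-like motif (TTCNNNGAA). CHR is known as a site of the DREAM and MYB-MuvB complexes, which repress and activate late cell cycle genes, CCAAT as a site of NF-Y, and STAT5 as a transcription factor downstream of the EPO receptor.
CCP110, chr16:19523692-19523991 (+ strand): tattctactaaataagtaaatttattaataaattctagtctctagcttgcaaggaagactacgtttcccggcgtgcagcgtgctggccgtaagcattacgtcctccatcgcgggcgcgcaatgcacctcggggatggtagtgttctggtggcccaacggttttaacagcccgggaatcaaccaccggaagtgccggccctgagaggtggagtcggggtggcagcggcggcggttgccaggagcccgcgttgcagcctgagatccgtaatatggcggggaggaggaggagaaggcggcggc
CDK1, chr10:60778081-60778380 (+ strand): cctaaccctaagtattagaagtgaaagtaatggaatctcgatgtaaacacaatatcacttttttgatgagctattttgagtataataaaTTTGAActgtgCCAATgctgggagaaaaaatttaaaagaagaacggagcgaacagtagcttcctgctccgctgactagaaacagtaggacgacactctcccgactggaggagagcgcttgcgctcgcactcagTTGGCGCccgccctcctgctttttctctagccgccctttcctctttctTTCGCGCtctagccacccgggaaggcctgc
KIF11, chr10:92592880-92593179 (+ strand): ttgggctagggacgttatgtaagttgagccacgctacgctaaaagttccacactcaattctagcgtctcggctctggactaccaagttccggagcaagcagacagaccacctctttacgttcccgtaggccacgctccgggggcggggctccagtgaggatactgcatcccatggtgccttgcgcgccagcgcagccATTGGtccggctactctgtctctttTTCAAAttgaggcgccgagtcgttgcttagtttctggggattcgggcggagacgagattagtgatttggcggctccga
SPC24, chr19:11155733-11156032 (- strand): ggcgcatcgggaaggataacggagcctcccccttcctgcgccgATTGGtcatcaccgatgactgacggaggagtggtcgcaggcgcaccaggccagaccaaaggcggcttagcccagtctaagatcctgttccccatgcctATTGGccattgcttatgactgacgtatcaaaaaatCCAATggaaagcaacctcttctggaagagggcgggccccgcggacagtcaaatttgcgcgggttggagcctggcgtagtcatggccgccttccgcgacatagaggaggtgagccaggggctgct
PTTG1, chr5:160421605-160421904 (+ strand): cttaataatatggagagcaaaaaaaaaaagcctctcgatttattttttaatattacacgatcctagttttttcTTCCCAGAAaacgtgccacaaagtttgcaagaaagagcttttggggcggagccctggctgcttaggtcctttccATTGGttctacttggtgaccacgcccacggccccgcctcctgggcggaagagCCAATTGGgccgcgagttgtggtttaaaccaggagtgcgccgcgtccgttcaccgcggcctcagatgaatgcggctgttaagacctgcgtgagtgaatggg
KIF15, chr3:44761544-44761843 (+ strand): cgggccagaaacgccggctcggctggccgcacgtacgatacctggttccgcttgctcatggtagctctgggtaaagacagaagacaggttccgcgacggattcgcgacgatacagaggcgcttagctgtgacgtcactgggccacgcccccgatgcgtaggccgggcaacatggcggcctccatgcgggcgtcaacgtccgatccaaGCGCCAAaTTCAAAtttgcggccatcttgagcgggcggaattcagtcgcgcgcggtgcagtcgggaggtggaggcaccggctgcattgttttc
CCP110, with the largest difference, held none of the 4 motifs. CDK1 held a CHR match 161 bases and a CCAAT match 150 bases before its start, and 2 E2F-like matches. KIF11 held a CHR match 28 bases and a CCAAT match 53 bases before its start. SPC24 held 3 CCAAT matches and no CHR match. PTTG1 held 3 CCAAT matches, of which 2 overlap as one palindrome, and 1 STAT5-like match. KIF15 held a CHR and an E2F-like match. CDK1 and PTTG1 each have another listed start, whose window is not shown.

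Across the 45 promoters, 29 (64.4%, 95% Wilson interval 49.8 to 76.8) held a CHR match, against 15.4% of all 27305 promoters of the same length. A CCAAT match was found in 34 (75.6%, interval 61.3 to 85.8), against 35.7% of all promoters. Both motifs stood together in 23 (51.1%), against 6.08% of all promoters. E2F-like matches were found in 14 (31.1%, interval 19.5 to 45.7), against 13.1%, and STAT5-like matches in 5 (11.1%, interval 4.84 to 23.5), against 7.88%. Among the 190 other cell division genes with a promoter, E2F-like matches were found in 35.8%, above the mitotic genes, CHR matches in 28.9%, CCAAT matches in 47.9% and STAT5-like matches in 5.79%. Among the 14210 promoters of genes measured on the array, the shares were 17.5% for E2F-like, 11.9% for CHR, 36.3% for CCAAT and 7.04% for STAT5-like matches. The intervals cover counting error only. The motifs did not follow the size of the difference in one way: the median difference was 0.64 for the 28 measured genes with a CHR match and 0.85 for the 16 without, whereas it was 0.81 for the 33 genes with a CCAAT match and 0.54 for the 11 without. With matches on the forward strand alone, the CCAAT medians turned round, to 0.63 with and 0.72 without. The medians with and without a match were 0.61 and 0.77 for the E2F-like motif and 0.88 and 0.63 for the STAT5-like motif. On the forward strand alone the E2F-like medians turned round as well, to 0.68 for 6 genes with and 0.66 for 38 without. Of the 11 genes called higher with EPO, 6 held a CHR match, 9 a CCAAT match, 4 an E2F-like match and 2 a STAT5-like match. Of all 44 measured mitotic genes with a promoter, 28, 33, 13 and 5 held these motifs in the same order. A match of letters is no evidence that a factor binds there.

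**Figure D3:**
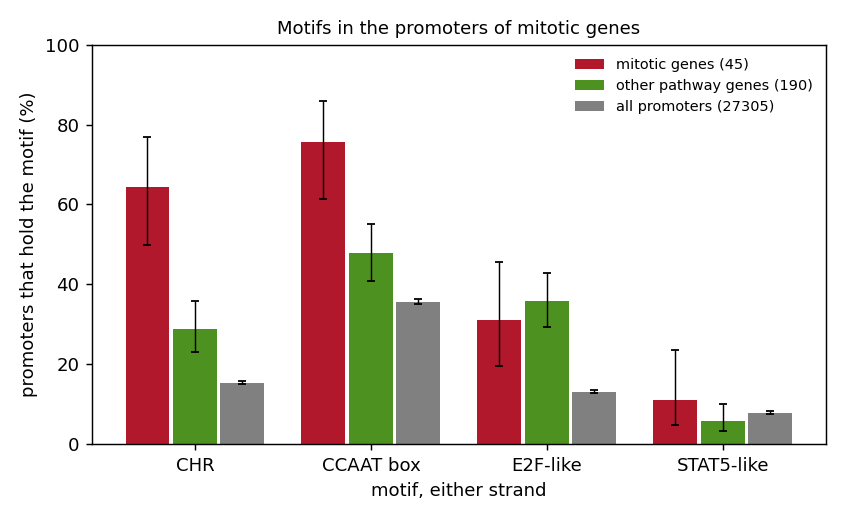
Share of promoters (y axis, percent, with 95% Wilson intervals) that hold each motif on either strand (x axis), for 45 mitotic genes (red), 190 other genes of cell division (green) and all 27305 RefSeq promoters (grey). CHR matches stand at 64.4% in mitotic genes, 28.9% in the other cell division genes and 15.4% in all promoters.

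Of the 8 kinases, CDK1 was the only one past 2-fold, and the median difference was 0.72. CDK1 had a log2 value of 0.32 with EPO and -1.23 without EPO, a difference of 1.55 (2.93-fold higher). Next came BUB1, a kinase of the checkpoint that marks unattached kinetochores, at 0.17 with EPO and -0.81 without EPO (difference 0.97), and AURKA, the centrosomal Aurora kinase, at 0.18 and -0.72 (0.89). The 2 values lay on opposite sides of the baseline for these 3 genes, as they did for each of the 8 kinases. TTK, the kinase that starts checkpoint signalling, differed by 0.82, the centrosomal kinase NEK2 by 0.62 and PLK1, which acts from mitotic entry to cytokinesis, by 0.36. AURKB, the kinase of the chromosomal passenger complex, had 0.080 with EPO and -0.042 without EPO, a difference of 0.12. PLK4, the kinase of centriole duplication, had -0.049 with EPO and 0.049 without EPO, a difference of -0.098. It was the only one of the 49 whose values were mirror images around the baseline (within 1e-05), as they were for 631 probes (2.19%). Kinases of one family could lie far apart, as AURKA and AURKB did.

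Cyclins and CDC25 phosphatases were all above 0. CCNB2 (cyclin B2) had 0.22 with EPO and -1.01 without EPO, a difference of 1.23 (2.34-fold higher). CCNA2 (cyclin A2) differed by 0.94, and CCNB1 (cyclin B1) had 0.094 with EPO and -0.44 without EPO, a difference of 0.53. CDK1 and its 3 cyclins thus spanned 0.53 to 1.55. Kinases and cyclins together, 11 genes, had a median of 0.82. Among the phosphatases, CDC25A, which also acts at the entry into S phase, had 0.29 with EPO and -0.85 without EPO, a difference of 1.13 (2.19-fold higher). CDC25C and CDC25B, with 0.61 and 0.52, stayed within 2-fold, and CDC25B, the lowest, had 0.076 with EPO and -0.45 without EPO. WEE1 and PKMYT1, kinases that oppose CDC25 on CDK1 and were picked out with their values known, stood at 0.80 and 0.37.

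The median was 0.73 for the genes of checkpoint and anaphase control, of which 2 of 8 were past 2-fold. MAD2L1, the checkpoint protein MAD2, had 0.28 with EPO and -0.91 without EPO, a difference of 1.19 (2.28-fold higher). SGO2, a shugoshin that protects centromeric cohesion, had 0.41 with EPO and -0.66 without EPO, a difference of 1.07 (2.10-fold higher). Its value with EPO was the highest of the 49. SGO1, the shugoshin of mitotic chromosomes, differed by 0.82, and the checkpoint proteins BUB3 and BUB1B (BUBR1) by 0.80 and 0.51. CDC20, the activator of the anaphase-promoting complex that the checkpoint holds, had a difference of 0.65. The 4 subunits of the mitotic checkpoint complex (MAD2L1, BUB3, CDC20 and BUB1B) thus lay between 0.51 and 1.19. ESPL1, the protease separase that cuts cohesin, differed by 0.35. PTTG1, securin, which holds separase inactive, was the lowest of the 49, with -0.11 with EPO and 0.14 without EPO, a difference of -0.25. It has a close intronless copy, PTTG2, whose part in the probe's signal was not tested.

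Centromere and kinetochore genes had a median of 0.66 over 7 measured genes, and 2 were past 2-fold. Both belong to the NDC80 complex, which grips the microtubule end. SPC24 had 0.20 with EPO and -1.19 without EPO, a difference of 1.39 (2.62-fold higher). NUF2 had 0.27 with EPO and -0.82 without EPO, a difference of 1.09 (2.13-fold higher). The other subunits differed less: NDC80 itself by 0.63, and SPC25, which pairs with SPC24, by 0.23, with 0.12 with EPO and -0.11 without EPO. Within this 4-subunit complex the differences spanned 1.16. Of the remaining genes, the corona protein CENPF differed by 0.99, the centromere protein CENPN, which reads CENPA nucleosomes, by 0.66 and the motor CENPE, which carries chromosomes to the spindle equator, by 0.54. CENPA shared its probe with the neighbouring gene SLC35F6, and that probe, which entered no count, read 0.078 with EPO and -0.15 without EPO.

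Kinesins had a median of 0.88, and 3 of 9 were past 2-fold. KIF11 (Eg5), which pushes spindle poles apart, had 0.22 with EPO and -1.19 without EPO, a difference of 1.40 (2.65-fold higher). KIF20A (MKLP2), a motor of the late spindle, had 0.22 with EPO and -0.84 without EPO, a difference of 1.07 (2.09-fold higher). The chromokinesin KIF4A had 0.070 with EPO and -0.95 without EPO, a difference of 1.02 (2.03-fold higher). KIF4A has a near-identical copy, KIF4B, and a probe listed for both read 0.076 with EPO and -0.23 without EPO, so its call is uncertain: averaged with that probe, KIF4A stood within 2-fold. KIF20B, the microtubule depolymerase KIF2C (MCAK), the chromosome-aligning KIF18A and the cytokinesis motor KIF14 lay between 0.81 and 0.88, and KIF23 (MKLP1), the motor of centralspindlin, stood at 0.51. KIF15, which can stand in for KIF11 in keeping spindles bipolar, had -0.036 with EPO and 0.12 without EPO, a difference of -0.16. The 2 motors thus lay at opposite ends of the kinesins.

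The chromosomal passenger complex, which corrects faulty attachments and guides cytokinesis, stood low as a whole beside most of the mitotic genes. INCENP, its scaffold, had 0.049 with EPO and -0.0037 without EPO, a difference of 0.053. CDCA8 (borealin) had 0.083 with EPO and -0.28 without EPO, a difference of 0.36. BIRC5 (survivin), the one measured gene with several probes, differed by 0.26 on average, with 0.44 on one probe and 0.091 on the other. With AURKB the 4 subunits lay between 0.053 and 0.36, and all 4 were below the lowest subunit of the mitotic checkpoint complex. The complexes set side by side were picked after the data were seen, and their gap was not tested. All 4 were above the median of all genes (-0.047). With the machinery median subtracted, the median of INCENP, CDCA8 and BIRC5 turned negative (-0.21).

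**Figure D4:**
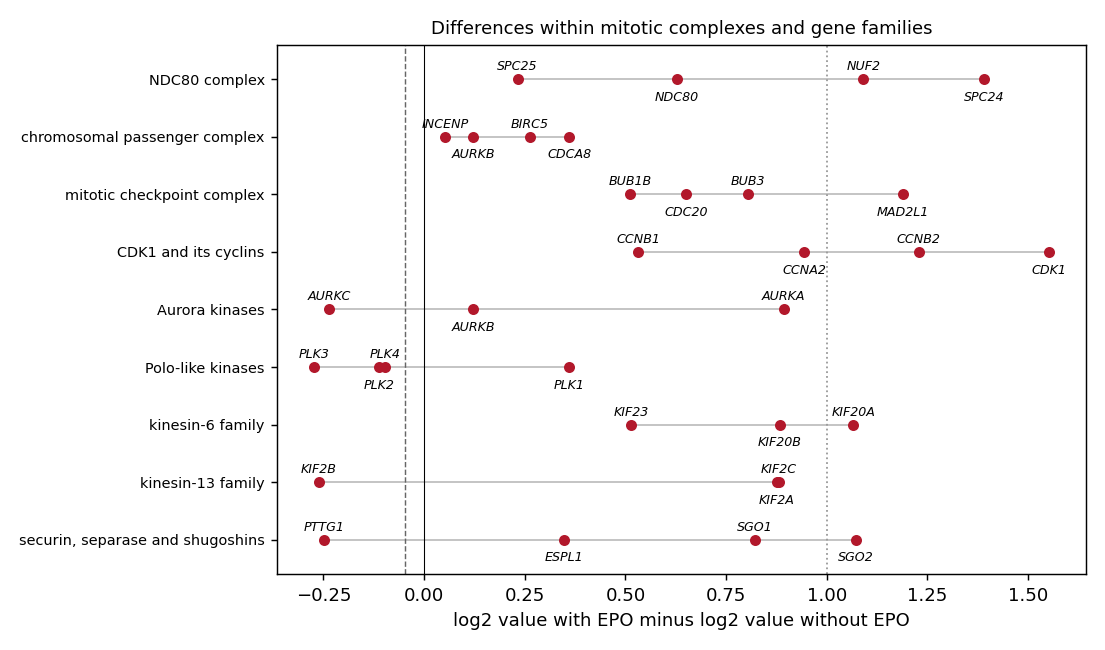
Difference, log2 with EPO minus log2 without EPO (x axis), of each gene in 9 mitotic complexes and gene families (y axis), 1 point per gene. The groups were picked after the data were seen. The dotted line marks 2-fold, and the dashed line the median of all genes (-0.047). The chromosomal passenger complex lies between 0.053 and 0.36, whereas the NDC80 complex runs from 0.23 to 1.39.

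Among 8 spindle, chromosome and division factors, with a median of 0.61, 1 was past 2-fold. That gene was CCP110, a cap protein of the centriole that limits its growth and blocks cilium formation, with 0.31 with EPO and -1.50 without EPO. Its difference of 1.81 (3.52-fold higher) was the largest of the 49. The proliferation marker MKI67 differed by 0.93, the spindle assembly factor TPX2 by 0.84 and TOP2A, the topoisomerase that untangles sister chromatids, by 0.77. ECT2, which activates RHOA for the cleavage furrow, differed by 0.44, and PRC1, which bundles midzone microtubules, by 0.24. NUSAP1, a microtubule binding protein, differed by 0.072, with 0.037 with EPO and -0.035 without EPO. ANLN (anillin), a scaffold of the contractile ring, had 0.018 with EPO and 0.041 without EPO, a difference of -0.022. CCP110, MKI67, TPX2 and TOP2A thus stood above the other 4 of this role. Of the 49 genes, the 3 below the median of all genes were PTTG1, KIF15 and PLK4.

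Family members outside the 50 genes, picked out after their values were seen, filled in the spread. AURKC, the Aurora kinase of germ cells, stood at -0.24, and the stress-related Polo-like kinases PLK2 and PLK3 at -0.11 and -0.27, near PLK4. The depolymerase KIF2A stood at 0.88, as KIF2C did, against -0.26 for KIF2B. KIF18B differed by 0.21, less than KIF18A, and RACGAP1, the partner of KIF23 in centralspindlin, by 0.78. Around CCP110, its partner CEP97 stood at 0.39, USP33, a deubiquitinase that stabilises it, at 0.80, and CCNF (cyclin F), which directs its degradation, at 0.37.

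Of another 227 genes of cell division, in 7 lists, 217 were measured, and by the same rule 31 of these (14.3%) were higher with EPO and 2 lower, beside 13.7% of machinery genes and 6.19% of all genes called higher and 0.898% of all genes called lower. Their median was 0.49, close to the machinery median of 0.47. With the machinery median subtracted, 1 of the 217 was higher and 5 were lower, where the shares of all genes were 0.691% and 6.38%. The calls named for the lists below thus hold for the values as deposited. Condensin and cohesin had the highest list median, 0.75, with 7 of 21 called higher and none (0) lower: ESCO1, which acetylates cohesin, at 1.39, the cohesin subunit RAD21 at 1.37, the condensin subunit NCAPD2 at 1.18, the cohesin releaser WAPL at 1.14 and SMC3 at 1.10 led it. Cytokinesis and spindle genes had a median of 0.67, with 7 of 40 called higher, led by SHCBP1 (1.32), SEPTIN2 (1.23), VPS4A (1.15), KPNB1 (1.13) and DLGAP5 (1.07). The centriole and centrosome list had a median of 0.50, with 5 of 35 called higher, among them the gamma-tubulin anchor NEDD1 (1.22), the augmin subunits HAUS6 (1.13) and HAUS1 (1.05), and CEP78 (1.02). CEP152, which recruits PLK4 to the centriole, was the 1 lower gene of that list, with -0.22 with EPO and 0.85 without EPO, a difference of -1.07.

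For the remaining lists, the shares to read beside the counts are again 6.19% of all genes and 13.7% of machinery genes called higher. The anaphase-promoting complex had a median of 0.49, with 4 of 18 (22.2%) called higher: its subunits ANAPC16 (1.89), CDC23 (1.15), ANAPC7 (1.13) and ANAPC5 (1.04). Its ubiquitin-conjugating enzymes UBE2C and UBE2S, picked out with their values known, stood at -0.37 and -0.40. Mitotic regulators and cell cycle transcription factors had a median of 0.41. In this list 2 of 38 (5.26%) were called higher, below the share of all genes: the repressor E2F7 (1.18) and the E2F partner TFDP1 (1.13). The kinase NEK9 (0.91) followed. FOXM1 and MYBL2, activators of G2 and mitosis genes that were picked out afterwards, stood at 0.68 and 0.71. Other kinetochore and checkpoint genes had a median of 0.31, with 5 of 33 (15.2%) called higher, near the machinery share: SKA1 (1.32), SKA2 (1.10), MIS12 (1.09), OIP5 (1.08) and CENPQ (1.01). Other kinesins, many of which carry cargo in non-dividing cells, had a median of -0.094. Of these, 1 of 32 (3.12%) was called higher (KIF5A, 1.30), below the share of all genes. The 1 called lower (3.12%) was KIFC2 (-1.09), where the share of all genes called lower was 0.898%. KIF21A followed at 0.90. The 9 kinesins among the 50 genes had a median of 0.88, but single genes of the 2 lists overlapped. KIF5A stood above every kinesin of the 9 but KIF11 (1.40). KIF21A stood above KIF20B, KIF2C, KIF18A, KIF14, KIF23 and KIF15, and KIF2A (0.88) above KIF18A, KIF14, KIF23 and KIF15. KIF1B (0.66), KIF16B (0.64) and KIF1C (0.52) stood above KIF23 (0.51) and KIF15. Some kinesins with mitotic roles in the other list stood low, with KIFC1 at 0.22, KIF18B at 0.21 and KIF22 at 0.094. The depolymerase KIF2A of that list did not. KIFC1, KIF18B, KIF22, KIF2A, KIF1B, KIF16B and KIF1C were picked out with their values known.

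**Figure D5:**
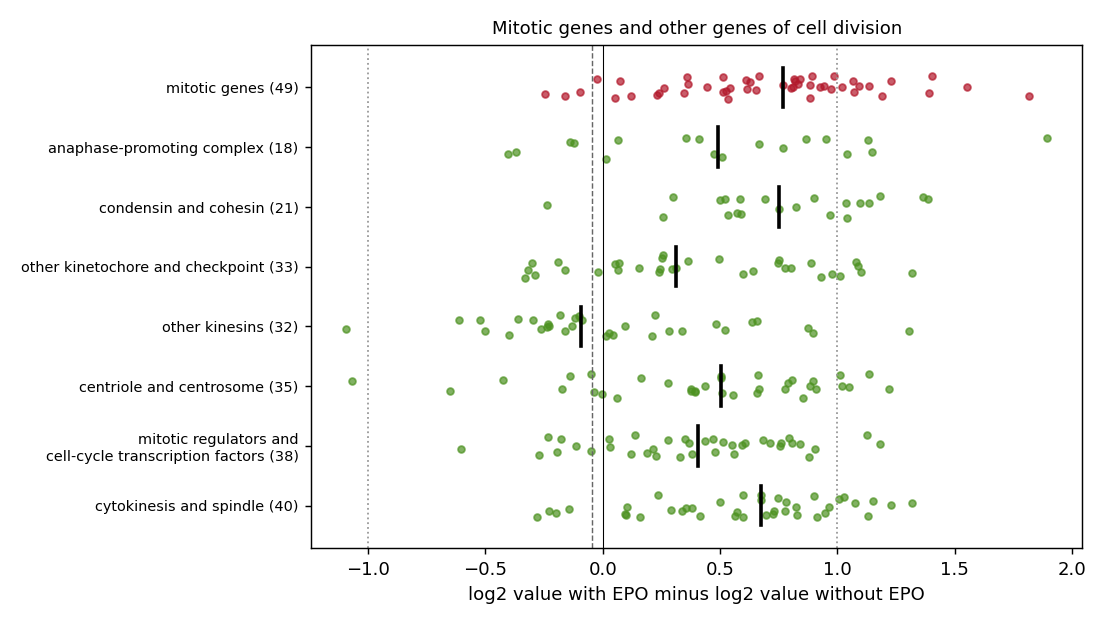
Difference, log2 with EPO minus log2 without EPO (x axis), of the 49 mitotic genes (red) and of 217 other cell division genes in 7 lists (green), 1 point per gene. Black bars are medians, dotted lines mark 2-fold and the dashed line is the median of all genes; the median is 0.77 for the mitotic genes and -0.094 for the other kinesins.

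Genes that act earlier in the cell cycle did not stand in one place. Of 20 genes of origin licensing and helicase loading, which prepare DNA replication, 4 (20.0%) were called higher with EPO. The shares called higher were 6.19% of all genes and 13.7% of machinery genes. The median of the 20 licensing genes was 0.77, as for the mitotic genes. D cyclins, CDK4, CDK6 and CDK inhibitors, 11 measured genes of the G1 phase, had a median of -0.27, which pools genes that stood apart. Of these 11, 2 (18.2%) were called higher and 1 (9.09%) lower, where the share of all genes called lower was 0.898%. The drivers CCND2 (1.56) and CDK6 (1.09) were called higher and CDK4 stood at 0.99, while CCND3 and CCND1 stood at 0.28 and -0.51. The inhibitor CDKN1C (-1.07) was called lower, and the inhibitors CDKN1A and CDKN2D stood at -0.68 and -0.48, but CDKN1B at 0.82. These genes were picked out with their values known. Both lists were drawn up after the data were seen, and with 1 array per group the gaps were not tested. Of the marker lists, the erythroid one had a median of 0.56 over 10 measured genes and lay 0.088 above the machinery median. In it 3 genes (30.0%) were called higher, beside 6.19% of all genes and 13.7% of machinery genes: SLC4A1 (1.19), RHAG (1.12) and TFRC (1.02). ALAS2 stood at 0.84, TAL1 at 0.81, EPOR at 0.31, GATA1 at 0.253 and KLF1 at 0.245. Its globin genes HBE1 and HBZ stood at 0.11 and -0.040, while HBG1, HBG2, HBA1 and HBA2 were not measured. The medians were -0.14 for megakaryocyte, -0.19 for granulocyte and monocyte, -0.23 for lymphoid and -0.040 for epithelial and stromal markers. Of these 4 lists, LYZ (1.05) of the granulocytes and monocytes and EPCAM (1.25) of the epithelial list were called higher, and the megakaryocyte gene TUBB1 stood at 0.94. Their part in the mitotic values was not tested, and on centred values the presence or absence of a marker cannot be read.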

How the data were processed

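RNA of 2 K562 cultures was hybridised to Affymetrix Gene 1.0 ST arrays, 1 per group, per the labels' protocols. The deposited values are read as log2 and are centred per probe on an unknown baseline; the array with EPO had a median of -0.0089 and the array without EPO one of 0.052. How the probes were summarised, background-corrected and normalized, and the base of the logarithm, were not given in the sources, so every fold rests on base 2. Of 28869 probes, the platform annotation gave 19310 exactly 1 gene, 1752 several and 7807 were not listed; 19279 were matched by Entrez ID to RefSeq symbols (GRCh38.p14). Averaging the probes of each gene left 18377 genes, with no filter on low values. The difference with EPO minus without EPO was called at 2-fold. With 1 array per group the number of arrays limits the precision.

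The members and lists were chosen with earlier results of these data known. The symbol rules for machinery and silent genes, the complexes and families shown together, and the earlier cell cycle lists were written after the data were seen. Named are every member, up to 5 genes past 2-fold and at least the 3 largest differences per other list, and marked exceptions. Motifs were searched on both strands in 300-base RefSeq promoters, using the first listed start (8 members have several). Alternatives were 1.5-fold, 3 scalings, other probe and symbol rules, other windows and starts. Python 3.11.15, NumPy 2.4.6, pandas 2.3.3 and SciPy 1.17.1 were used. The code for calls was checked on simulated differences set beyond the threshold with little noise. The motif search was checked on CHR matches planted on the forward strand only. Neither check measures the error of the arrays.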

Additional observations from a re-analysis of the deposited data

How the results depend on the processing

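No paired analysis was possible because each group has 1 array; no array could be left out either. The count of 11 mitotic genes at least 2-fold higher with EPO (6.19% of all genes) became 30 at 1.5-fold (18.1% of all genes). It became 2 with the machinery median subtracted (0.691% of all genes) and 25 with the silent median subtracted (15.3%). Under the other 6 alternatives it lay between 10 and 13. None (0) was lower under any of the 9. The other cell division genes, 31 higher and 2 lower, became 92 and 5 at 1.5-fold (18.1% and 4.65% of all genes). They became 1 and 5 with the machinery median subtracted (0.691% and 6.38%), and 78 and 0 with the silent median subtracted (15.3% and 0.55%). The median of the mitotic genes, 0.77, became 0.82 with the median of all genes subtracted, 0.30 with the machinery median, 1.10 with the silent median, 0.79 for genes with 1 probe, 0.66 with probes of several genes used and 0.72 without KIF4A. With the machinery median subtracted, 14 of the 49 differences lay below 0, and the median of INCENP, CDCA8 and BIRC5 was -0.21. In the 100 bases before the start, CHR matches were found in 35.6% of the mitotic promoters (4.64% of all promoters), E2F-like in 13.3% (5.05%) and STAT5-like in 0% (2.35%). On the forward strand alone, CCAAT matches were found in 40.0% (20.8% of all promoters) and E2F-like in 15.6% (7.09%). The scalings subtract a constant by construction; the cause of the class differences was not tested.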

Other observations

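Gene length was set beside the difference as a description. Across the 49 mitotic genes, Spearman's rho between the length of the gene in the genome and its difference was 0.044; the 25 longer genes had a median difference of 0.82 and the 24 shorter ones 0.63. Across 16863 protein-coding genes on the same arrays rho was 0.18. The genes share the same 2 arrays and are not independent. The 3 other cell division genes farthest below 0 that stayed within 2-fold were HAUS5 at -0.65, the kinesin KIF26A at -0.61 and the CDK1 subunit CKS2 at -0.61, with -0.19 with EPO and 0.42 without EPO for CKS2.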
